A study of Mus musculus with 7 samples.

Results

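The miRNAs miR-92a, miR-92b, miR-25, miR-363, miR-32 and miR-367 carry the same seed, the stretch at bases 2 to 8 by which a miRNA pairs with its target mRNAs, and are described here as 1 family in naive and activated mouse CD4 T cells. The members were taken as every array probe whose target repeats bases 2 to 8 of the target of probe UC1004978, which is miR-92a. This gave 16 of 1874 probes. Small RNA was measured on 7 custom Agilent arrays, all from Balb/c mice of 6 to 8 weeks, with Cy3-labelled RNA and 250 ng per array. All cells were CD4 T cells with the DO11.10 T cell receptor, sorted from pooled spleens and lymph nodes. The naive group (2 arrays) held cells sorted as CD25- and CD44 low from DO11.10 mice that were Rag2+/+. The activated groups held CD44 high cells taken 5 days after CD4+ donor cells from DO11 Rag2-/- mice had been injected into a host, either a WT Balb/c mouse (called WT host here, 2 arrays) or an sOVA mouse (called sOVA host, 3 arrays, with sOVA not spelled out in the labels). Hosts of both kinds were immunized intravenously 24 hours after the transfer, with dendritic cells grown from bone marrow that had been treated with LPS and given Ova peptide. Naive and activated cells thus differed in Rag2 genotype, in transfer and in the sort as well as in activation, and these cannot be told apart. The series' title calls the activation in vitro, whereas its design text and the sample labels describe activation in mice. The sample titles also word the immunization differently, as OVA immunized for the WT host and sOVA immunized for the sOVA host. Nothing in the labels says whether arrays of a group came from separate pools of mice, so the spread that the p-values rest on may be technical.

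A miRNA guides an Argonaute protein to mRNAs that match its seed and lowers their translation or stability, so miRNAs with a common seed can act on overlapping sets of targets. miR-92a is the last miRNA of the miR-17 to miR-92 cluster, which promotes lymphocyte survival and proliferation. miR-25 lies in a related cluster with miR-106b and miR-93, and miR-363 in another on chromosome X. miR-367 is known from the miR-302 cluster of pluripotent stem cells.

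The mouse table of RefSeq (GRCm38.p6) held 6 mature miRNAs with this seed. They are shown in full because the members differ only outside the seed, which is in capitals, and because the probes read these other bases.
mmu-miR-92a-3p: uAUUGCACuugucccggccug
mmu-miR-92b-3p: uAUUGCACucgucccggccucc
mmu-miR-25-3p: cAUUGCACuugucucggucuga
mmu-miR-363-3p: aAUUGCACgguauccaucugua
mmu-miR-32-5p: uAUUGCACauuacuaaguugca
mmu-miR-367-3p: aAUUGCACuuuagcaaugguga

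Of the 16 probe targets, 9 equalled one of these miRNAs or were nested with it, and 7 matched no mouse entry. The targets of the probes on which the results turn, from the scanner files and written as DNA with the seed in capitals, were the following. The last 2 matched no mouse entry and are shown because they differ from the miR-92a target by so few bases.
UC1004978 (miR-92a): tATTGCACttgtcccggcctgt
UC1004838 (miR-25): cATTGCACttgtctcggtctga
UC1004983 (miR-92b): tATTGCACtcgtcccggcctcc
UC1005544 (miR-363): aATTGCACggtatccatctgta
UC1004976: cATTGCACttgtcccggcctat
UC1004982: aATTGCACtagtcccggcctgc

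Positions are counted from 1 at the 5′ end of the target, with the base of UC1004978 first. UC1004976 differed from UC1004978 by T1C and G21A, and UC1004982 by T1A, T10A and T22C. The miR-92b target differed by T10C, G21C and T22C. The miR-25 target differed by T1C, C14T, C18T and T22A. The miR-363 target differed at 12 of 22 positions, which makes it the detected member least like miR-92a in sequence. How far each probe also bound RNA of its nearest relatives was not tested.

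The 6 miRNAs come from 7 hairpins of RefSeq's GRCm38.p6 annotation, since miR-92a has 2. Mir92-1 lies at chr14:115044427-115044506 on the plus strand, within the span of the long non-coding RNA gene Mir17hg and beside Mir17, Mir18, Mir19a, Mir20a and Mir19b-1. Mir92-2 (chrX:52741838-52741928) and Mir363 (chrX:52741693-52741767) lie on the minus strand of chromosome X beside Mir19b-2, Mir20b, Mir18b and Mir106a, in the span of no other gene. Mir25 lies at chr5:138165321-138165404 on the minus strand, within the span of Mcm7, a subunit of the replicative helicase, beside Mir93 and Mir106b. Mir92b lies at chr3:89227116-89227198 on the minus strand, in the span of no other gene. Mir32 (chr4:56895229-56895298, minus strand) lies within Tmem245, and Mir367 (chr3:127545733-127545807, plus strand) within Larp7, beside Mir302a to Mir302d. The mature miR-92a-3p of both of its hairpins is the same sequence, so a miR-92a level is that of both loci together. The table used gives gene spans only, so introns and exons are not stated.

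Levels are log2 signals after each array was scaled to the 75th percentile of the 253 probes detected on all 7 arrays, so that 0 is that percentile. A probe counted as detected where at least 50% of its 7 spots were well above background. Each array had 309 to 467 detected probes, with 16.5% to 25.4% of spots well above background and none saturated. The dimmest arrays were sOVA host replicate 3 and, next to it, WT host replicate 2. The number of arrays limits the precision. A level is relative to the other small RNA on its array, and fewer cells with a miRNA cannot be told apart from less of it per cell. Levels of different probes are not compared, since probes differ in how well they bind.

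Of the family's probes, 7 were detected on all 7 arrays. They were the miR-92a probes UC1004978 and UC1004977, the probes of miR-25, miR-363 and miR-92b, and the unmatched probes UC1004976 and UC1004982. A probe for miR-32 was detected on 1 array only, and the other 8 probes, which include both for miR-367, on none. The spots of a detected member on an array differed with an SD of 0.0186 to 0.230 on the log2 scale. After targets nested in each other were merged, the family made 13 features, of which 6 passed the detection filter and were tested among 342 in all.

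miR-363 was the 1 member called higher in both activated groups than in naive cells. Its levels were -3.56 and -3.69 in naive cells, -2.19 and -1.81 in cells from the WT host, and -2.53, -2.47 and -2.40 in cells from the sOVA host. Every activated array lay above both naive arrays by more than 1 log2 unit, and the sOVA host arrays lay close together below both WT host arrays. The group means were -3.62 ± 0.09 (SD, n = 2), -2.0 ± 0.26 (SD, n = 2) and -2.47 ± 0.07 (SD, n = 3). In cells from the WT host it was higher than in naive cells by 1.62 ± 0.27 (SE) on the log2 scale, 3.08-fold (95% interval 0.97 to 2.27 in log2; adjusted p = 0.0108, limma). In cells from the sOVA host it was higher by 1.15 ± 0.24 (SE), 2.22-fold (95% interval 0.56 to 1.75; adjusted p = 0.0230, limma).

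The direction of the miR-363 change was the same under all 19 alternatives of processing or of arrays left out, but the call was not. Many of these could not turn the direction. The filter on dim features, merging and the choice of arrays compared left the change itself unaltered. Leaving out arrays could hardly turn its sign, since every activated array lay above both naive arrays. The scaling was then computed anew on the arrays kept, so the sign was not strictly fixed. For the WT host the call was made under 13 of the 19 alternatives and for the sOVA host under 11. Left out singly, naive replicate 1, naive replicate 2 and WT host replicate 2 each ended the WT host call, with changes of 1.66 (adjusted p = 0.126), 1.56 (adjusted p = 0.0896) and 1.44 (adjusted p = 0.0741, limma). The sOVA host call ended without naive replicate 1 (1.17, adjusted p = 0.229), naive replicate 2 (1.09, adjusted p = 0.187), sOVA host replicate 1 (1.16, adjusted p = 0.0582) or sOVA host replicate 2 (1.15, adjusted p = 0.062, limma). Both calls also ended when the 75th percentile was taken over all probes, with changes of 1.11 (adjusted p = 0.364) and 0.34 (adjusted p = 0.776, limma). That scaling moved the median change of all features from 0.27 to -0.245 for the WT host and from 0.11 to -0.704 for the sOVA host. Relative to the median of all features, miR-363 was higher by 1.35 and 1.04 under either scaling. Each subtracts 1 value per array, so that equality is fixed by arithmetic. With quantile normalization miR-363 was higher than that median by 1.23 and 0.92. Testing every feature without a filter on dim ones gave adjusted p = 0.313 and 0.131, scaling to the median gave 0.0502 and 0.0695, and quantile normalization gave 0.0356 and 0.0688 (limma).

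The arrays lay in 2 rows of 1 slide, and each row held arrays of every group. The row was inferred from a part of the array barcode in the file headers. Within the rows, miR-363 was higher than in the naive array by 1.37 and 1.87 in cells from the WT host and by 1.05 and 1.29 in cells from the sOVA host. With WT host replicate 2 and sOVA host replicate 3, the dim arrays, both left out, the changes were 1.43 (adjusted p = 0.0214) and 1.1 (adjusted p = 0.0176, limma). That choice was made after values were seen, and it leaves a lone WT host array, which is taken to vary like the other groups. Since every activated array lay above both naive arrays, each row had to show a higher level. The subset without the dim arrays was scaled anew but could hardly show otherwise. Only the sizes are thus informative. With slide row as a block in the fit of all 7 arrays, the changes were 1.62 (adjusted p = 0.0085) and 1.17 (adjusted p = 0.0165, limma).

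miR-92a, the member for which the family was searched, was lower on every activated array than on both naive arrays, by amounts within the error. UC1004978 stood at 0.70 and 0.68 in naive cells, at 0.21 and 0.47 in cells from the WT host, and at 0.11, 0.25 and 0.60 in cells from the sOVA host. The naive arrays were nearly equal, whereas the activated arrays spread over about as wide a range as separated the groups. The means were 0.69 ± 0.02 (SD, n = 2), 0.34 ± 0.18 (SD, n = 2) and 0.32 ± 0.25 (SD, n = 3). The change was -0.35 for the WT host (95% interval -1.05 to 0.36; adjusted p = 0.406, limma) and -0.37 for the sOVA host (95% interval -1.01 to 0.27; adjusted p = 0.324, limma). These intervals leave room for a fall of 1 log2 unit as well as for a small rise. The size depended on the scaling: the 75th percentile over all probes gave -0.86 and -1.19, median scaling -0.61 and -0.46, and quantile normalization -0.16 and -0.14, none of them called. Left out singly, WT host replicate 1 brought the WT host change to -0.22. The shorter miR-92a probe UC1004977, whose target ends 1 base earlier, gave 0.62 and 0.57 in naive cells, 0.13 and 0.33 in cells from the WT host, and -0.02, 0.16 and 0.45 in cells from the sOVA host. It kept the same order of groups as UC1004978.

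The unmatched probes with near-miR-92a targets moved like miR-92a. UC1004976 stood at 0.53 and 0.47 in naive cells, at 0.02 and 0.25 in cells from the WT host, and at -0.17, -0.00 and 0.38 in cells from the sOVA host. UC1004982 stood at -0.97 and -1.19, at -1.59 and -1.31, and at -1.72, -1.60 and -1.27. For both probes the naive arrays were highest, without overlap with either activated group. Their changes were -0.36 and -0.37 for the WT host (adjusted p = 0.400 and 0.379, limma) and -0.43 and -0.46 for the sOVA host (adjusted p = 0.276 and 0.242, limma). Across the 7 arrays, which share scaling and labelling, their levels followed those of UC1004978 with Pearson's r of 0.995 and 0.967. Whether they measured miR-92a itself or another RNA was not tested.

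miR-25, from the cluster in Mcm7, lay at -0.03 and -0.12 in naive cells, at 0.23 and 0.29 in cells from the WT host, and at -0.03, 0.16 and 0.28 in cells from the sOVA host. The WT host arrays lay above both naive arrays, while sOVA host replicate 1 overlapped the naive range. The change was 0.33 for the WT host (95% interval -0.29 to 0.96; adjusted p = 0.375, limma) and 0.21 for the sOVA host (95% interval -0.36 to 0.79; adjusted p = 0.515, limma). Its sign depended on the scaling, since taking the 75th percentile over all probes gave -0.18 and -0.60. Relative to the median change of all features, miR-25 stood at 0.06 and 0.10 under both of these scalings. That equality is fixed by arithmetic, since each subtracts 1 value per array. Under quantile normalization miR-25 stood at 0.37 and 0.30.

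miR-92b, a separate gene whose product is close to miR-92a in sequence, was lower in all activated cells, again within the error. Its levels were -3.69 and -3.89 in naive cells, -4.38 and -4.25 in cells from the WT host, and -4.49, -4.34 and -4.14 in cells from the sOVA host. The change was -0.53 in both comparisons (95% intervals -1.18 to 0.12 and -1.13 to 0.06; adjusted p = 0.209 and 0.151, limma). The naive arrays did not overlap with either activated group, and r with UC1004978 over the 7 arrays was 0.918. The 75th percentile over all probes gave -1.04 and -1.35, quantile normalization -0.81 and -0.88, and normexp -0.32 and -0.35, none of them called.

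The longer miR-32 probe, UC1004898, was well above background on naive replicate 2 alone, at -7.32. On the other 6 arrays its level of -8.89 to -7.15 was not well above background, and the shorter miR-32 probe was not so on any array. Both miR-367 probes, UC1005547 and UC1005548, were at or close to the lowest level of any probe on each array. The 5 other unmatched probes of the family were not well above background on any array. These members were not tested, and a level under background gives only a bound.

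Of the 6 family features tested, limma called 1 in each comparison with naive cells at an adjusted p under 0.05, miR-363 both times, and 5 were not called. Over all 342 features the share called was 18.7% (64 features) for the WT host and 21.1% (72 features) for the sOVA host, or 12.9% and 15.5% counting only features that were higher and 5.85% and 5.56% counting only those that were lower. The balance of directions over all features depended on the scaling. It was 44 higher and 20 lower for the WT host and 19 and 20 with the 75th percentile over all probes. Median scaling gave 33 and 25 there and quantile normalization 32 and 20. For the sOVA host it was 53 higher and 19 lower and 24 and 44 with the 75th percentile over all probes. Median scaling gave 35 and 18 there and quantile normalization 34 and 28. One call among 6 is thus near the background share. In both comparisons the change was above 0 for miR-25 and miR-363 and below 0 for the other 4. The family's median change was -0.36 for the WT host and -0.40 for the sOVA host, against medians of 0.27 and 0.11 over all features tested. UC1004976 and UC1004982 followed UC1004978 closely (r of 0.995 and 0.967), so the family's counts and medians may weigh the same signal repeatedly. The groups of arrays did not overlap for 6 of the 6 family features in the WT host comparison and for 5 of 6 in that of the sOVA host, where the shares over all features were 75.7% and 61.7%. Both comparisons use the same naive arrays.

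To set the members against each other without the array's scale, the log2 signal of UC1004978 was subtracted from that of each other member on the same array. This difference depends on how well each probe binds, so only its change between groups is read. For miR-363 it was -4.26 and -4.36 in naive cells, -2.40 and -2.29 in cells from the WT host, and -2.65, -2.72 and -3.0 in cells from the sOVA host. The naive, sOVA host and WT host arrays formed 3 ranges that did not overlap. Relative to miR-92a, miR-363 was 3.91-fold higher in cells from the WT host than in naive cells, a change of 1.97, and 2.88-fold higher in cells from the sOVA host, a change of 1.52. An exact two-sided permutation test of 2 arrays against 2 cannot go below p = 0.333 and gave that value. The same exact permutation test of 3 against 2 cannot go below p = 0.1 and gave that value (0.545 and 0.36 after Benjamini-Hochberg adjustment over 18 such comparisons). When each array was left out in turn, or the background correction or the mean over spots was replaced, these changes ranged from 1.91 to 2.02 and from 1.45 to 1.63.

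Against miR-92a on the same array, miR-25 was also higher in activated cells, a shift to which both probes contributed. On the scaled levels miR-25 changed by 0.33 and 0.21 and miR-92a by -0.35 and -0.37, none of them called. The difference was -0.73 and -0.80 in naive cells, 0.01 and -0.18 in cells from the WT host, and -0.15, -0.08 and -0.32 in cells from the sOVA host. Every activated array lay above both naive arrays, including sOVA host replicate 1, whose scaled miR-25 level overlapped theirs. The changes were 0.68 (1.60-fold) and 0.58 (1.5-fold), with the smallest permutation p that each design allows, 0.333 and 0.1 (exact, two-sided; 0.545 and 0.36 adjusted). For miR-92b the changes were -0.18 and -0.16, without overlap with the naive arrays. For UC1004976, UC1004982 and UC1004977 they lay between -0.09 and -0.02, so these 3 probes kept nearly the same distance from UC1004978 in every group.

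Between the hosts no family feature was called by limma, and none reached an unadjusted p under 0.05. Over all 342 features the share called was 0%, with 41 at an unadjusted p under 0.05. The largest family difference was that of miR-363, which had a difference of -0.47 on the log2 scale, with the sOVA host lower (95% interval -1.06 to 0.13; adjusted p = 0.531, limma). It was the 1 family feature whose host groups did not overlap, which held for 23.4% of all features. Within the slide rows this difference was -0.32 and -0.58, and against miR-92a on the same array it was -0.44 (exact two-sided permutation p = 0.1, the smallest that 3 against 2 arrays allow; 0.36 adjusted). For miR-92a the difference was -0.02 (95% interval -0.67 to 0.62; adjusted p = 0.981, limma). For miR-25 it was -0.12 (95% interval -0.70 to 0.45; adjusted p = 0.865, limma). For miR-92b it was -0.00 (95% interval -0.60 to 0.59; adjusted p = 0.997, limma). The median over the family was -0.08, against -0.15 over all features. These intervals do not show that the hosts were alike, since they include differences of 0.5 log2 units in either direction for miR-92a and miR-92b.

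The hairpins of miR-92a, miR-25 and miR-363 lie beside those of 10 other miRNAs, of the seeds of miR-17, miR-18 and miR-19. Of the 17 features with these seeds that were tested, 4 were higher and 0 lower than naive in each activated group (limma, adjusted p under 0.05), all of the miR-18 seed, where 12.9% and 15.5% of all features were higher. Their median change was 0.56 for the WT host and 0.03 for the sOVA host. Of the 10 features that match these miRNAs over their whole length, 2 were called in each comparison, near the 18.7% and 21.1% called over all features. The 4 features with the miR-18 seed were all those of that seed that were tested. They may read the same RNA, so both counts may weigh the same signal repeatedly. miR-18a, encoded by Mir18 upstream of Mir92-1, stood at -3.22 and -3.07 in naive cells, at -1.35 and -0.95 in cells from the WT host, and at -1.65, -2.18 and -1.82 in cells from the sOVA host. All activated arrays lay above the naive ones. Its changes were 1.99 (3.98-fold, adjusted p = 0.00964) and 1.26 (2.40-fold, adjusted p = 0.0269, limma). miR-18b, encoded by Mir18b in the cluster of Mir363 and detected on 6 of 7 arrays, changed by 2.12 (adjusted p = 0.0115) and 1.38 (adjusted p = 0.0332, limma). The array on which it was not detected was sOVA host replicate 3, where its level was -5.34. The sOVA host change thus rests in part on a value not well above background. miR-18b was named after its values were seen.

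The calls of miR-18a and miR-18b depended on single arrays, as that of miR-363 did. For the WT host neither was called without naive replicate 1 (1.89 and 1.99), naive replicate 2 (2.07 and 2.23) or WT host replicate 2 (1.79 and 1.91), nor miR-18b without WT host replicate 1 (2.33). For the sOVA host neither was called without naive replicate 1 (1.14 and 1.23), naive replicate 2 (1.34 and 1.48) or sOVA host replicate 1 (1.12 and 1.13), nor miR-18b without WT host replicate 1 or 2 (1.38 in each case). With the 75th percentile over all probes the changes were 1.48 and 1.61 for the WT host and 0.45 and 0.56 for the sOVA host, none called. Without the filter on dim features none was called either, at adjusted p = 0.313 for both in the WT host and adjusted p = 0.102 and 0.0806 in the sOVA host (limma). For the sOVA host neither was called with median scaling (adjusted p = 0.0589 for both) or quantile normalization (adjusted p = 0.0517 and 0.176), nor miR-18b with normexp (adjusted p = 0.0515) or with only the arrays compared (adjusted p = 0.056, limma).

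The other 8 whole matches were not called in either comparison. Their changes lay between -0.27 and 0.70 for the WT host (adjusted p = 0.1 to 0.690, limma) and between -0.74 and 0.50 for the sOVA host (adjusted p = 0.0852 to 1.00, limma). miR-19b, next to miR-92a in both of its clusters, was at the lower end with -0.27 and -0.74. miR-93, next to miR-25, was at the upper end with 0.70 and 0.50. On chromosome X the called features were thus those of miR-18b and miR-363, with miR-106a, miR-20b, miR-19b and miR-92a not called. The miR-18b probe shares its seed with that of miR-18a, and its changes were close to those of miR-18a. Whether it measured miR-18b or RNA of miR-18a was not tested, so its call cannot be assigned to chromosome X. On chromosome 14 miR-18a was the 1 guide arm called. Of the neighbours' opposite arms, miR-93-3p, beside Mir25 and detected on 6 arrays, was called higher in both groups. Its change was 1.19 in each (adjusted p = 0.0281 and 0.0221, limma). The array on which miR-93-3p was not detected was sOVA host replicate 3, where its level was -5.41. Its sOVA host change thus rests in part on a value not well above background. These calls were not followed through the alternatives of processing. miR-106b-3p, miR-17-3p, miR-20a-3p and miR-20b-3p were not called. miR-18a-3p (2.58 and 2.28, detected on 4 arrays) and miR-19b-1-5p (-0.59 and -1.11, on 3) are given without a test. These arms were named after their values were seen.

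Of the opposite arms of the family's hairpins, 3 had a probe and 1 was tested. That was miR-92a-2-5p, made only from Mir92-2 on chromosome X, the hairpin next to Mir363. Its levels were -6.07 and -4.76 in naive cells, -5.17 and -4.13 in cells from the WT host, and -4.32, -5.72 and -2.38 in cells from the sOVA host. The arrays of every group overlapped with those of the others. The changes were 0.77 (adjusted p = 0.618) and 1.28 (adjusted p = 0.365, limma). Single arrays decided their size. The WT host change was 0.0927 without naive replicate 1, 1.42 without naive replicate 2, 1.29 without WT host replicate 1 and 0.25 without WT host replicate 2. The sOVA host change was 0.58 when naive replicate 1 was left out and 1.93 when naive replicate 2 was. It was 2.06 when sOVA host replicate 2 was left out and 0.38 when replicate 3 was. The probes for miR-25-5p and miR-32-3p did not pass the detection filter.

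The features most like miR-92a were sought among 208 detected on all arrays that do not share its seed, by Pearson's r over the 7 arrays. The highest values were those of miR-664-3p (r = 0.846), miR-706 (0.740), miR-574-5p (0.736), miR-1187 (0.728) and UC1006152, which matched no mouse entry (0.715). None came as close as UC1004976 and UC1004982 with 0.995 and 0.967. miR-25 and miR-363 did not follow miR-92a, with r of -0.195 and -0.591. They followed each other with r of 0.856. Among features of other seeds, miR-93-5p had the r closest to 1 with miR-363 (0.995), a look-up made after values were seen. miR-93-5p lies beside Mir25 and not beside Mir363. These arrays share their scaling and fall into groups, so the coefficients describe the arrays only.

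Markers of other cell types were read on the same arrays. The erythroid list (miR-451a and miR-144, from cells known to be rich in miR-92a) had 1 tested feature of 4 probes, miR-451a, not called in either comparison, and its miR-144 probes were not tested. Its summed level was -1.13 to -0.22 in naive cells, -2.60 to -1.05 in cells from the WT host and -3.35 to 1.68 in cells from the sOVA host. In cells from the sOVA host the erythroid sum and the miR-92a level were -0.35 and 0.11 for replicate 1. They were -3.35 and 0.25 for replicate 2 and 1.68 and 0.60 for replicate 3. In cells from the WT host they were -2.60 and 0.21 for replicate 1 and -1.05 and 0.47 for replicate 2. In naive cells they were -0.22 and 0.70 for replicate 1 and -1.13 and 0.68 for replicate 2. The part of erythroid RNA in the miR-92a levels was not tested. The myeloid marker miR-223 was detected on both naive arrays, on 1 of 2 WT host arrays and on 2 of 3 sOVA host arrays. It passed the filter through the naive group, so no test of it is given. Summed levels of the myeloid list were -2.59 to -2.38 in naive cells, -5.70 to -5.21 in cells from the WT host and -6.11 to -4.36 in cells from the sOVA host. Of the 15 epithelial probes, 7 and 9 were detected in naive cells, 3 and 0 in cells from the WT host, and 4, 5 and 0 in cells from the sOVA host. The 6 features that passed the filter are therefore not read as a test either. Their list had summed levels of -3.20 to -3.02, -3.93 to -3.79 and -3.29 to -2.67. No probe of the muscle or neural lists was tested. Their part in the family's differences was not tested. The lymphocyte list (miR-142a and miR-181a) was detected on every array, with summed levels of 3.34 to 3.59 in naive cells, 1.79 to 2.25 in cells from the WT host and 1.17 to 2.83 in cells from the sOVA host. Of its 7 tested features, 2 were called lower in cells from the WT host and 1 in cells from the sOVA host, where 5.85% and 5.56% of all features were.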

How the data were processed

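Small RNA was read on 7 one-colour Agilent arrays on 1 slide with 1 scan time. The deposited scanner files give linear spot intensity from which Feature Extraction had subtracted background, in version 9.5.1.1 per the file headers and 10.6 per the submitters' processing notes. The authors' deposited value table holds log2 values that carry no identifier of a family probe, and was used only for counts of calls over all of its 1775 complete rows. Control and outlier spots were dropped, a probe's 7 spots were averaged on the log2 scale, and arrays were scaled as stated with the levels.

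Targets are reverse complements of the probe sequences without the last 10 T and a leading G. They were named by whole or nested matches to RefSeq's mature mouse miRNAs (GRCm38.p6), and nested targets were merged into 1753 features. Features detected throughout at least 1 group were tested with limma 3.58.1 in R 4.3.3 (lmFit and eBayes, group means of all 7 arrays, Benjamini-Hochberg over all 342 features, threshold 0.05). The scripts were tested on simulated data.

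Named were members detected on every array of a group (miR-32 and miR-367 are given as not so detected), the brightest tested feature per seed of the lists of cluster partners, opposite arms and cell type markers, and the 5 features most like UC1004978. Members and lists were chosen with earlier results of these data known. The lists of markers also named miR-486a-5p, miR-122-5p, miR-205-5p, miR-200a, miR-200b, miR-200c, miR-141, miR-1a-3p, miR-133a-3p, miR-206, miR-124-3p, miR-9 and miR-150-5p. Alternatives covered scaling, background correction (normexp, offset 50), the filter on dim features, merging, the mean over spots, the arrays fitted, slide row, replicate number and each array left out.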

Additional observations from a re-analysis of the deposited data

How the results depend on the processing

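The number of family features called, 1 in each comparison with naive cells, fell to 0 when arrays were scaled to the 75th percentile of all probes or to the median of probes detected on all arrays, or when no filter on dim features was used, and for the sOVA host also with quantile normalization. Leaving out 1 array gave 0 to 1 in both. The count over all features, 64 for the WT host, was 39 with the 75th percentile of all probes, 41 with normexp, 25 with only features detected on all arrays, 16 with no filter, 129 with only the arrays compared, 109 with slide row as a block and 12 to 156 with 1 array left out. That for the sOVA host, 72, was 34 with only features detected on all arrays, 25 with no filter, 125 with slide row as a block and 9 to 130 with 1 array left out. That between hosts, 0, was 0 to 65, the 65 without sOVA host replicate 3. Without both dim arrays the counts were 117, 155 and 45, and the authors' deposited values gave 225, 212 and 126. With the replicate block they were 139, 104 and 27, and of the calls of miR-363, miR-18a and miR-18b that of miR-18b for the sOVA host was not made (1.40). The counts come from unlike numbers tested, so they cannot be compared as shares. These were 342 features in the main fit, 214 with only features detected on all arrays, 1753 with no filter and 1775 rows of the deposited values. Leaving out arrays could also change the number tested. Deviations of same-numbered arrays correlated at -0.60 to 0.35, so numbers were not taken as pairs. By slide row, arrays of different groups correlated at 0.18 to 0.61 within a row and at -0.61 to -0.18 across rows. Of the 6 same-numbered pairs, 4 share a row. In a group of 2 arrays the deviations are equal and opposite, so the values across rows mirror those within rows by construction. Both dim arrays lay in row 2, so for that pair row and dimness cannot be told apart.

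Signs that turned were those of uncalled changes. With the 75th percentile of all probes they were miR-25 (-0.18 and -0.60) and, for the sOVA host, miR-93 (-0.31). With quantile normalization it was miR-19b for the WT host (0.0939). Between hosts the sign turned with median scaling for miR-25 (0.0524), UC1004976 (0.11), miR-92a (0.15), UC1004982 (0.0880) and miR-92b (0.17), and with quantile normalization for miR-92a (0.0159) and UC1004982 (0.0635). The median of spots gave 0.0163 for miR-92a and 0.00859 for miR-92b, and slide row as a block 0.0166 and 0.0101. With 1 array left out the host difference ranged from -0.22 to 0.0533 for UC1004976, -0.17 to 0.11 for miR-92a, -0.22 to 0.0519 for UC1004982, -0.0968 to 0.0612 for miR-92b and -0.37 to 1.30 for miR-92a-2-5p. The replicate block gave -0.37 for miR-92a-2-5p. Causes were not tested.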
